A study of Mus musculus with 89 samples.

Results

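Muc5ac, Muc5b, Clca1, Spdef, Agr2, Foxa3, Itln1, Tff2, Muc4 and Muc1 are genes of mucins, of proteins secreted with mucus and of regulators of the mucus-producing goblet cell, and their RNA was followed in whole mouse lung across an allergen challenge and 4 copper oxide nanomaterials. The 10 genes were chosen by symbol, as the non-control probes whose accession belongs to one of them in RefSeq, and make up 10 of the 22911 genes measured. Together they had 13 probes, with 2 for Muc5b, 3 for Muc4 and 1 for each of the others. Expression values did not enter this matching of probes, but the 10 genes were chosen with earlier results of these data known.

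All mice were female BALB/c, 6 to 8 weeks old, and all had been sensitised with ovalbumin (OVA) and alum, so that the controls carried the sensitisation too. On 4 consecutive days they received PBS (PBS-challenged mice) or OVA (OVA-challenged mice) by oropharyngeal aspiration, either alone or together with core CuO, carboxylated CuO (CuO COOH), methylaminated CuO (CuO NH3) or PEGylated CuO (CuO PEG) at 2.5, 10 or 40 μg/mouse a day. Lung tissue was taken 24 h after the last aspiration, and the lungs had been lavaged first. The labels state these doses once in μg and once in mg, and doses were matched by mass of material, whose copper content was not the same. Each sample was an independent pool of 2 RNA samples and not a single animal. The 89 samples in 26 groups comprised 7 PBS-challenged controls, 8 OVA-challenged controls, 4 samples each of PBS-challenged mice given 10 μg of CuO NH3 or CuO PEG, and 3 of every other group.

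Airway mucus is built from large secreted mucins, above all Muc5ac and Muc5b, while Muc4 and Muc1 are mucins anchored in the cell membrane. In allergic airways, IL-13 acting through STAT6 turns secretory cells of the airway lining into goblet cells, a change that is driven by the transcription factors Spdef and Foxa3 and carried out with Agr2, a protein of the endoplasmic reticulum that mucins need for folding. Clca1, Itln1 and Tff2 are secreted by such cells in the inflamed airway.

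The samples lay on 46 2-colour arrays of 6 slides. Slides 1 to 3 held core CuO and CuO COOH with 3 PBS and 4 OVA controls, and slides 4 to 6 held CuO NH3 and CuO PEG with 4 of each, so that slide and material can be told apart only through the controls and through terms of the fit. Of the 10 alveolar type 2 cell genes looked at, including the surfactant genes Sftpc and Sftpb, 10 were well above background in 89 of 89 samples. Of the club cell genes looked at, Kcnk2 was well above background in 55 samples and Krt15 in 63. Each of the others, among them Scgb1a1, Scgb3a2 and Cyp2f2, was so in 89. Of 10 genes of stomach and squamous epithelium, tissue that might be carried over, Gkn3 was well above background in 89 samples, Tff1 in 56, Atp4b in 30, Krt4 in 20, Gkn2 in 15, Gkn1 in 7, and Krt13, Pgc, Sprr3 and Atp4a in 4, 2, 1 and 0. The mean level of this list was 5.85 to 6.01 in PBS-challenged and 6.08 to 6.31 in OVA-challenged controls, between which Tff1, a trefoil factor that airway mucous cells also make, was the 1 called gene, and its part in the results was not tested. Among the 10 genes, Clca1 was well above background in 80 of 89 samples, Foxa3 in 55 and Muc5ac in 88, and the third Muc4 probe in 84. For the others it was 89. No spot of the arrays was saturated, and the number of arrays limits the precision.

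A level is given here as a log2 intensity after quantile normalisation with dye, slide and array position removed, and a log2 fold change comes from limma with dye and array as terms, or dye, slide and position for comparisons between materials. A call needed a log2 fold change beyond 0.58 in either direction and an adjusted p (Benjamini-Hochberg over all genes) below 0.05. The terms for the array leave 17 residual degrees of freedom, and 3 samples that were alone on their array add nothing to such a fit, replicate 2 of PBS-challenged CuO COOH at 2.5 μg and replicates 1 and 3 of OVA-challenged CuO at 2.5 μg. A fit that treats the array as a random block was therefore run as an alternative, and its calls are given where they differ. Of the 750 pairs of a gene and a comparison, 68 were called in the first fit, 200 with the random block and 62 in both. In 78 of the 750 pairs the log2 fold change had the opposite sign to the difference of the group levels, and 0 of these were among the called pairs. Removing dye, slide and position moved single levels by up to 2.93 for Clca1 and 0.96 for the others. Of 630 pairs of a gene and 2 groups, 343 did not overlap on these levels and 221 of them did not before this removal either. Among the called pairs it was 66 and 62 of 67. For all genes the share of pairs without overlap was not counted, so that these counts have no base to be set against. In bulk tissue, fewer cells of a type and less RNA per cell cannot be told apart, which holds for every value that follows.

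The first comparison asks how these genes respond to the allergen alone, in OVA-challenged against PBS-challenged controls. Of the 10 genes, 8 rose, against 5.22% of all genes called and 3.71% called higher. The median log2 fold change was 2.34 over the 10 genes and -0.016 over all genes. The groups did not overlap in 9 of 10 genes, Muc1 being the exception. The share of all genes without overlap was not counted, so that this number has no base to be set against.

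Among the secreted mucins, Muc5ac levels were 6.03 at the lowest, 6.64 at the median and 7.11 at the highest in PBS-challenged controls, and 10.12, 10.68 and 11.14 in OVA-challenged controls. Every OVA-challenged sample was thus at least 3 log2 units above every PBS-challenged sample. The log2 fold change of Muc5ac, the base for what follows, was 3.02 (SE 0.484, adjusted p = 1.16e-04 from limma), and within the 6 slides the difference ranged from 3.02 to 4.55. Muc5b, the mucin that the resting mouse airway already makes, lay between 9.51 and 10.72 (median 10.41) without and between 12.51 and 13.30 (median 12.80) with the allergen. Its 2 probes rose by 2.32 and 2.31 on the log2 scale.

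Clca1, also known as gob-5 and secreted by goblet cells, had the widest range. Its levels were 6.10, 7.12 and 8.32 (lowest, median, highest) in PBS-challenged controls and 14.53, 15.96 and 16.79 in OVA-challenged controls. On each of the 6 slides the OVA-challenged samples were higher, by 7.23 to 9.68. Itln1, an intelectin that binds microbial glycans, was 7.29, 7.85 and 8.05 against 11.65, 12.22 and 12.81, and rose by 3.62 (SE 0.358, adjusted p = 1.57e-07, limma), which is 12.3-fold. Within the 6 slides its difference was larger, at 3.85 to 4.54, and with the random block it was 4.16. The Itln1 probe may also read near-identical intelectin genes, so that its value is uncertain as to gene. Tff2, a trefoil factor of mucous secretions, was 7.53, 8.32 and 8.59 against 10.44, 10.84 and 11.46. It rose by 2.37 (SE 0.518, adjusted p = 0.00291, limma).

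The regulators separated the challenges as well. Spdef levels were 7.98, 8.28 and 8.57 in PBS-challenged controls and 9.97, 10.34 and 10.62 in OVA-challenged controls, a log2 fold change of 1.84 (SE 0.257, adjusted p = 2.03e-05, limma). Agr2 was 7.02, 7.50 and 8.15 against 11.16, 11.70 and 12.37, and rose by 3.85 (SE 0.431, adjusted p = 1.00e-06, limma) or 14.5-fold. The spread within each group was smaller than this distance for both genes. Within the 6 slides the difference of Agr2 was 3.86 to 4.81, and with the random block it was 4.09. Foxa3 was the dimmest of the regulators, at 5.67, 5.72 and 5.80 against 6.18, 6.35 and 6.71. All 8 OVA-challenged samples lay above the 7 others, but the log2 fold change of 0.50 (SE 0.15, adjusted p = 0.0274, limma) was under the limit of 0.58. With the random block it was 0.59 and Foxa3 was called too, with 6.11% of all genes called in that fit and 4.26% called higher.

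The membrane mucins stood apart from the secreted ones. Muc4 levels were 7.57, 7.70 and 7.89 in PBS-challenged controls and 8.16, 8.41 and 8.67 in OVA-challenged controls, and Muc4 rose by 0.68 (SE 0.164, adjusted p = 0.00653, limma). Only 1 of its 3 probes was called on its own, with 1.06, while the other 2 had 0.56 and 0.42. The call of Muc4 was lost without replicate 2 of the PBS-challenged or replicate 3 of the OVA-challenged controls (0.63 to 0.75 over 15 fits with 1 control left out), and those of the other 7 in 0 of the 15. Muc1, whose tail inside the cell binds signalling proteins, was 11.65, 11.79 and 11.87 against 11.74, 11.86 and 11.99. Its groups overlapped, and the difference of 0.18 had a 95% interval from -0.11 to 0.47 (adjusted p = 0.531, limma).

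**Figure D1:**
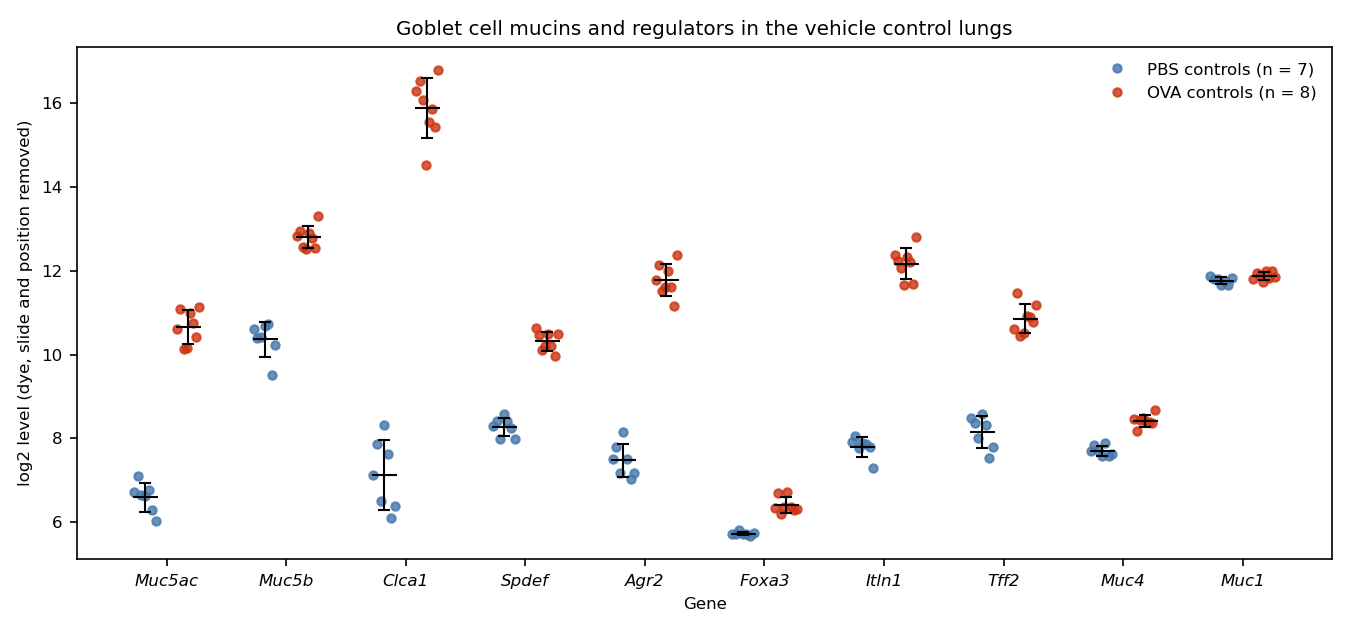
Levels (log2 intensity, dye, slide and array position removed) of the 10 genes in the 7 PBS-challenged and 8 OVA-challenged controls, 1 point a sample, with mean and SD as bars. The 2 groups do not overlap in 9 genes and overlap in Muc1, and the share of all genes without overlap was not counted.

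The region upstream of Spdef and Agr2 is shown because these 2 genes moved with the mucins and because RefSeq sequence was at hand for 6 of the 10 genes (Spdef, Agr2, Foxa3, Itln1, Muc4 and Muc1). The sequences run 5′ to 3′ over the 250 bases before the start site in GRCm38.p6, in the table of RefSeq promoters, and capitals mark a match.
Spdef, chr17:27728952-27729201, reverse strand: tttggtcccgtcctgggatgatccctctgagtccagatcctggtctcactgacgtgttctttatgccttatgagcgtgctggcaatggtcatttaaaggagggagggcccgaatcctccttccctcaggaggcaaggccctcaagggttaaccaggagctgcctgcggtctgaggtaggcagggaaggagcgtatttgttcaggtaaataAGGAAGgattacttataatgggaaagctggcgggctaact
Agr2, chr12:35992675-35992924, forward strand: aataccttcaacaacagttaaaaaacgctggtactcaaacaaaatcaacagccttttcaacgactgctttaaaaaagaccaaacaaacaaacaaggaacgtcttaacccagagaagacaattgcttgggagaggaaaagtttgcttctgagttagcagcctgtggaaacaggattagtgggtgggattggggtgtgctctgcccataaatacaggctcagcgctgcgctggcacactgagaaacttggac
Both strands were searched for the STAT palindrome, in which TTC is followed by GAA after 4 (STAT6) or 3 bases. The forkhead motif of FOXA proteins was searched for in the form TGTTTAC and, with another base before the last, in the form TGTTTGC. The core of the metal response element was taken as TGCGCNC, or with a change in the middle of it as TGCACNC. The core of the antioxidant response element was spelled as TGACNNNGC. The remaining motifs were the core of the TATA box, written TATAAA, and the core that ETS factors bind together with its flanking bases, written AGGAAG. Spdef itself belongs to the ETS factors. Its upstream region held 1 AGGAAG, 40 bases before the start site, and 29.5% of 32851 promoters hold such a match. In Agr2 none (0) of these motifs was found. The STAT palindrome with 4 or 3 bases between its arms occurs in 5.85% and 7.02% of promoters, the forkhead forms in 3.17% and 4.3% and the metal response forms in 12.5% and 10.4%.

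Other genes of the mucous cell were read from lists, beside 5.22% of all genes called and 3.71% called higher between the controls. Of 19 measured goblet cell products and other mucins, 7 rose in OVA-challenged controls, led by the anion exchanger Slc26a4 (log2 fold change 4.36), the lectin Reg3g (3.23), Retnlb (2.68) and Fcgbp (2.48), which is a partner of mucins in the mucus gel. Of 25 genes of mucin folding and O-glycosylation, 4 rose, including Ern2 (1.55), the stress sensor of mucous cells, and the glycosyltransferase Galnt12 (1.00). Of 33 genes of the IL-13 and STAT6 pathway and mucous cell control, 5 rose, among them Socs1 (1.50), Il33 (1.41), Alox15 (1.33) and Il4 (1.05). The Il13 probe was well above background in 1 of 89 samples. Medians of these lists were 0.18, 0.07 and 0.13, against -0.016 over all genes. Of 12 club cell genes, 3 fell, Cyp2f2 by 1.15, Aldh1a1 by 0.72 and Ces1d by 0.59, and of 8 eosinophil genes 3 rose, with Prg2 at 1.34.

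PBS-challenged mice exposed to the materials were next compared with PBS-challenged controls, which asks whether the materials move these genes without the allergen. In 12 exposed groups, 14 of 120 pairs were called, all of them higher, against 4.41% of pairs over all genes called and 2.72% called higher. The 14 calls fell on Muc4, Muc1 and Agr2. In this fit no call fell on Muc5ac, Muc5b, Clca1, Spdef, Foxa3, Itln1 or Tff2, although 39 of the 120 pairs had an unadjusted p under 0.05. The fit with a random block called 37 pairs, with 5.38% of pairs over all genes called, and secreted mucins and their regulators were among them. Muc5b was then higher in 5 groups, by 1.03, 1.05 and 1.20 after 2.5, 10 and 40 μg of core CuO, by 1.22 after 10 μg of CuO COOH and by 0.90 after 10 μg of CuO NH3. Muc5ac was higher after 2.5 μg of core CuO (1.67, adjusted p = 0.0016, limma). Spdef was higher after 2.5 and 10 μg of core CuO (0.60 and 0.68) and 2.5 μg of CuO NH3 (0.94), and Tff2 after 2.5 and 10 μg of core CuO (1.23 and 1.36). Each of these 4 genes was thus called after 2.5 μg of core CuO. Replicate 3 of that group was the highest for each gene, at 10.21 (Muc5ac), 12.54 (Muc5b), 9.75 (Spdef) and 10.89 (Tff2). Before dye, slide and position were removed, replicate 1 lay within the range of the controls for Muc5b, Spdef and Tff2, but not for Muc5ac. Whether these calls hold without replicate 3 was not tested. Foxa3 and Itln1 had 0 calls in either fit. These comparisons share the 7 control samples and are not independent of one another.

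Muc4 rose in 7 of the 12 groups. After core CuO its levels were 8.63, 8.76 and 8.83 at 2.5 μg, 8.43, 8.91 and 8.79 at 10 μg and 8.83, 8.70 and 8.49 at 40 μg, where the 7 controls lay between 7.57 and 7.89. All 9 samples were above all controls, and the 3 doses overlapped with each other. The log2 fold changes were 1.02 (SE 0.242, adjusted p = 0.0428, limma), 1.49 (SE 0.284, adjusted p = 0.00319) and 1.49 (SE 0.273, adjusted p = 4.13e-04), with 0.908%, 3.56% and 14% of all genes called. The first was lost in 7 of 10 fits that left out 1 sample, and the others without replicate 2 of their own group (1.27 to 1.71 and 1.39 to 1.90 over 10 fits each). The 3 Muc4 probes were each called after 40 μg, at 1.77, 1.61 and 1.1.

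Muc4 also rose after CuO COOH at 10 μg (8.98, 8.86 and 8.68, log2 fold change 1.26) and at 40 μg (8.66, 8.68 and 8.62, 1.03), and after CuO NH3 at 10 μg (8.74, 8.61, 8.73 and 8.69, 0.98) and at 40 μg (8.27, 8.40 and 8.41, 0.58). The last of these was just above the limit on the fold and was lost in 6 of 10 fits with a sample left out. The others were lost without replicate 1 or 3 of the exposed group or replicate 1 of the controls (CuO COOH at 10 μg), without replicate 1 of the controls (CuO COOH at 40 μg, 0.68 at the lowest) and without replicate 4 of the exposed group (CuO NH3 at 10 μg, 0.64 at the lowest). Muc4 was called after 2.5 μg of CuO NH3 too with the random block (0.87). In these comparisons 3.61%, 10.3%, 3.37% and 13.2% of all genes were called.

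After CuO PEG, Muc4 was 7.67, 7.62 and 7.51 at 2.5 μg, inside or below the range of the controls. At 10 μg it was 8.51, 7.84, 8.03 and 7.82 and at 40 μg 8.41, 8.50 and 8.46. The CuO PEG samples at 40 μg were above all controls, but the log2 fold change of 0.77 (95% interval 0.30 to 1.24) had an adjusted p of 0.0754 from limma, and Muc4 was called there with the random block (0.89, adjusted p = 5.89e-08).

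Muc1, which did not separate the controls by allergen, rose in 5 of the 12 groups without allergen. Its levels after core CuO at 2.5 μg were 12.48, 12.61 and 12.73, all above the highest control of 11.87, and it rose by 1.07 (SE 0.208, adjusted p = 0.0091, limma). The log2 fold change was 0.91 at 10 μg and 0.72 at 40 μg of core CuO, 1.11 after CuO COOH at 10 μg (SE 0.251, adjusted p = 0.0123, limma) and 0.64 after CuO NH3 at 10 μg. After CuO PEG at 2.5 μg the levels were 11.67, 11.58 and 11.62, 1 of them within the range of the controls and the others just below it. At 40 μg of CuO PEG they were 12.42, 12.46 and 12.68, with a log2 fold change of 0.67 and an adjusted p of 0.0715 from limma. With the random block Muc1 was called there (0.84, adjusted p = 8.44e-08) and after 2.5 μg of CuO NH3 (0.68, adjusted p = 2.89e-05). The Muc1 calls at 10 and 40 μg of core CuO were lost in 4 of 10 fits each with a sample left out (0.60 to 1.25 and 0.56 to 1.30), and the one at 40 μg also with the array as a random block. Those at 2.5 μg of core CuO, 10 μg of CuO COOH and 10 μg of CuO NH3 were lost in 1 of 10, 3 of 10 and 2 of 11.

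The upstream regions of Muc4 and Muc1 are shown because these mucins moved together without allergen, with a Pearson correlation of 0.920 over the 13 means of PBS-challenged groups. Over the 13 means of OVA-challenged groups it was 0.804. Build, direction and search were as for Spdef.
Muc4, chr16:32735636-32735885, forward strand: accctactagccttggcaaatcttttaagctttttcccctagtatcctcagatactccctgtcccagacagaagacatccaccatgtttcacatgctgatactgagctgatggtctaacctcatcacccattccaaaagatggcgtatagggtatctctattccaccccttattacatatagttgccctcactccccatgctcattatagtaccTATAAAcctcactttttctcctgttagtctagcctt
Muc1, chr3:89228806-89229055, forward strand: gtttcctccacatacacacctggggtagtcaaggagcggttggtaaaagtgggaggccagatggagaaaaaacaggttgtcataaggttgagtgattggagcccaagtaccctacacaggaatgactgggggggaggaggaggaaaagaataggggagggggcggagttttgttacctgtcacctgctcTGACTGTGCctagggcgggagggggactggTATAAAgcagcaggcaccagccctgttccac
The capitals mark a TATAAA 36 bases before the start site of Muc4 and 31 bases before that of Muc1, and in Muc1 also TGACTGTGC, a match to TGACNNNGC that begins 61 bases before the start site. Of 32851 promoters, 12.4% hold TATAAA and 10.2% TGACNNNGC. Foxa3 also held a TATAAA, 36 bases before its start site.

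Agr2 was called in 2 groups without allergen. After 40 μg of core CuO its levels were 9.74, 9.72 and 9.30 and after 40 μg of CuO NH3 8.65, 8.38 and 9.24, where the controls reached 8.15 at most. Before dye, slide and position were removed, the CuO NH3 samples overlapped with the controls. It rose by 2.45 (SE 0.718, adjusted p = 0.0192, limma) and by 1.38 (SE 0.507, adjusted p = 0.0489). The first call was lost without replicate 2 of the exposed group or replicate 3 of the controls, and the second in 9 of the 10 fits that left out 1 of its samples or controls. With the random block, Agr2 was called in 9 of 12 groups, all those of core CuO, CuO COOH and CuO NH3, and in 0 of the 3 groups of CuO PEG. Of the 37 pairs called by that fit, 36 were higher and Tff2 after 40 μg of CuO NH3 lower, against 5.38% over all genes.

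Clca1 spread widely after exposure alone. In PBS-challenged mice given 2.5 μg of core CuO its levels were 8.67, 8.79 and 13.20, and after 2.5 μg of CuO COOH 10.73, 11.81 and 13.54. In the same order of groups, Muc5ac was 8.00, 7.46 and 10.21, and 7.36, 7.53 and 8.84. The sample with the highest Clca1 was the third in both groups, on slide 3 each time. It had the highest Muc5ac, Spdef, Agr2 and Itln1 of its group as well. The Clca1 log2 fold change against PBS-challenged controls was 6.33 (95% interval 2.32 to 10.33, adjusted p = 0.273, limma) after 2.5 μg of CuO COOH and was called with the random block (3.21, adjusted p = 0.0315). At 40 μg the Clca1 levels were low again. They were 7.01, 6.47 and 5.59 after core CuO and 4.97, 5.56 and 5.71 after CuO NH3, with a log2 fold change of -0.97 (adjusted p = 0.66, limma) for the latter. Without the removal of dye, slide and position the CuO NH3 samples were at 5.77, 8.35 and 6.27 and the controls at 6.31 to 9.30, so that they overlapped, and levels of about 5.60 to 6.23 are the lowest that were well above background in a sample.

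The step from the lowest to the highest dose without allergen was tested too, and Tff2 and Spdef fell over it after CuO NH3. Tff2 levels were 9.72, 9.03 and 8.54 at 2.5 μg and 6.32, 7.29 and 6.74 at 40 μg, which are all below the lowest of the former. From the lowest to the highest dose Tff2 fell by 2.14 on the log2 scale (SE 0.623, adjusted p = 0.0227, limma) and Spdef by 0.99 (SE 0.308, adjusted p = 0.0331), with 7.15% of all genes called. After CuO PEG the step from 2.5 to 40 μg raised Muc4 by 1.09 (SE 0.253, adjusted p = 0.0112, limma) and Muc1 by 0.74 (SE 0.218, adjusted p = 0.0478), with 4.35% of all genes called. The Muc1 call was lost in 6 of 6 fits that left out 1 of these samples, the Muc4 call without replicate 3 of either group, and the 2 calls of CuO NH3 in 4 of 6. In the fit with the random block Clca1 was called as well, with -3.69 for core CuO (adjusted p = 0.0133, limma), -4.23 for CuO COOH (adjusted p = 0.00334) and -3.09 for CuO NH3 (adjusted p = 0.0247). Tff2 was called there for CuO COOH (-1.91) and Muc5ac for core CuO (-1.38). For core CuO and CuO COOH same-numbered samples deviated together, and with the replicate number as a block Clca1 had -3.53 and -4.04, Spdef -0.63 and Tff2 -1.89 (the latter pair after CuO COOH), with 5.45% and 6.52% of all genes called. The difference between these materials in the dose step was not tested.

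**Figure D2:**
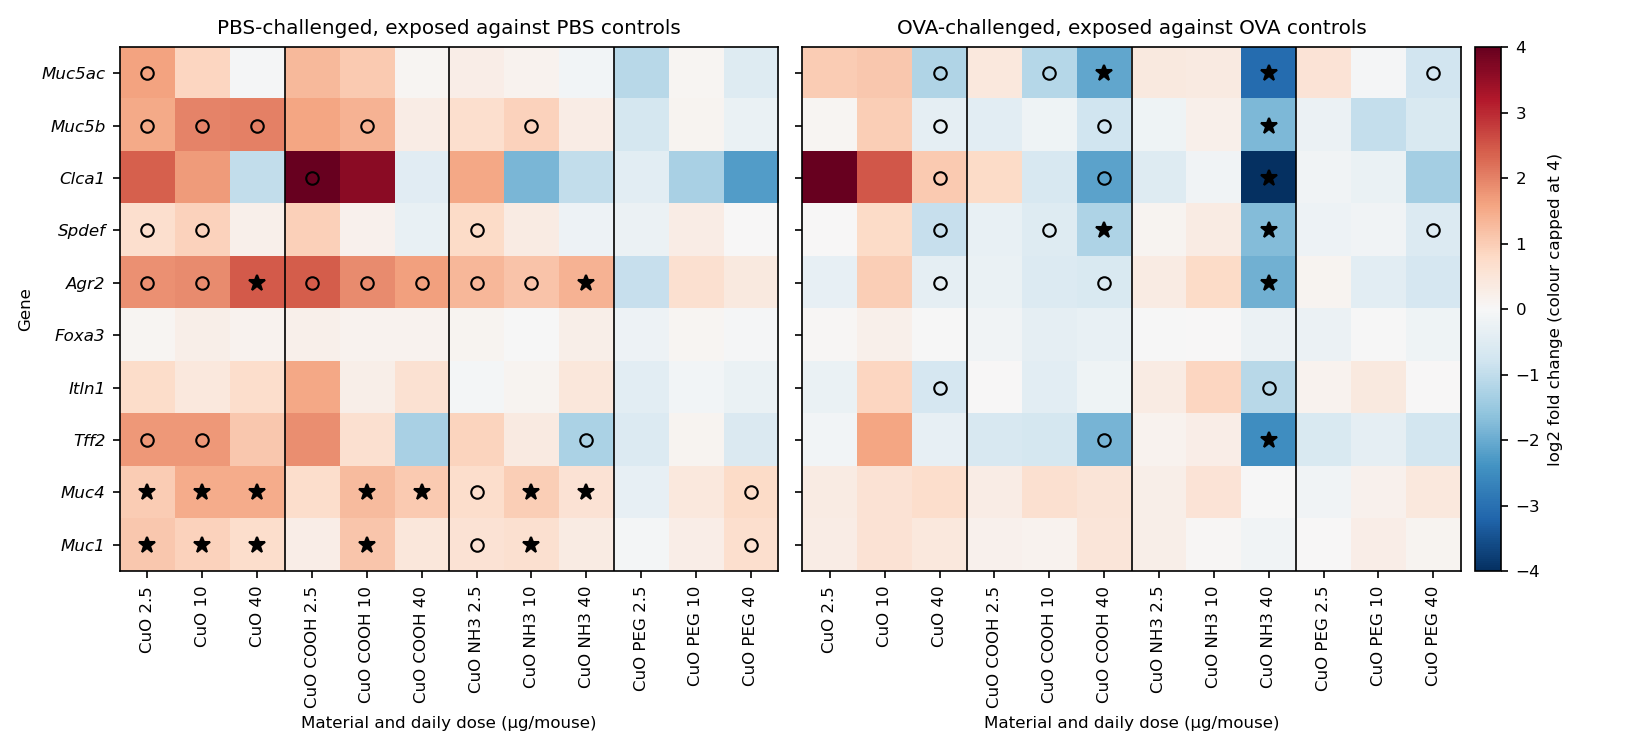
Log2 fold change of the 10 genes in the 12 exposed groups of PBS-challenged mice against PBS-challenged controls and of OVA-challenged mice against OVA-challenged controls, with colours held at 4 on either side. Stars mark the 14 and 8 pairs called by limma with array terms, and open circles pairs called only with the array as a random block, among them Clca1 at 40 μg of core CuO with OVA, whose colour stands for 1.03 and whose value was -3.67 with the block.

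Other mucous genes were read in the comparisons without allergen, in which 7.82%, 7.36% and 1.67% of all genes were called higher after 40 μg of core CuO, CuO NH3 and CuO PEG. Of the 19 goblet cell products, 5 rose after 40 μg of core CuO, led by Retnlb (log2 fold change 5.49), Reg3g (4.58) and Dmbt1 (4.41), and 3 rose after 40 μg of CuO NH3, Retnlb (4.74), Dmbt1 (3.16) and Slc26a4 (2.89). After 40 μg of CuO PEG 1 did, Slc26a4 (2.93). Their median log2 fold changes of 0.25 after core CuO and 0.039 after CuO NH3 stood beside 0.0088 and -0.0031 over all genes. Of the 12 club cell genes, 4 fell after core CuO and 7 after CuO NH3 at this dose, with 6.23% and 5.87% of all genes called lower. Of 11 measured neutrophil genes, 9 rose and 1 fell after core CuO and 7 rose after CuO NH3. The mean level over the neutrophil list was 9.40 to 9.74 in PBS-challenged controls, 10.43 to 11.05 after 40 μg of core CuO and 10.76 to 11.18 after 40 μg of CuO NH3. The part of these cell types in the results for Muc4, Muc1 and Agr2 was not tested.

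The materials were then given together with the allergen and compared with OVA-challenged controls, which asks whether they change the mucous response. Here 8 of 120 pairs were called, all lower, against 1.2% of pairs over all genes called and 0.523% called lower. The calls were confined, in this fit, to the highest dose of CuO NH3 with 6 and of CuO COOH with 2. An unadjusted p under 0.05 was reached by 21 pairs. These comparisons share the 8 OVA-challenged controls.

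After 40 μg of CuO NH3, 3.98% of all genes were called and 1.92% were lower. Muc5ac levels were 7.36, 7.35 and 7.81, against 10.12 to 11.14 in the OVA-challenged controls and 6.03 to 7.11 in the PBS-challenged controls. The samples thus lay closer to the mice without allergen than to those with it. Muc5ac fell by 3.06 (SE 0.612, adjusted p = 0.00383, limma), and Spdef, at 8.78, 8.74 and 8.52, fell by 1.74 (SE 0.325, adjusted p = 0.00228). Both calls held in 11 of 11 fits that left out 1 of these samples or controls.

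Clca1 was 10.71, 11.17 and 10.90 after 40 μg of CuO NH3 with OVA, below every OVA-challenged control and above every PBS-challenged control. It fell by 4.65 (SE 1.37, adjusted p = 0.045, limma). Muc5b was 11.07, 11.50 and 11.87 and fell by 1.78 (SE 0.536, adjusted p = 0.0484). Both calls were lost in 8 of 11 fits with a sample left out, and of the 2 Muc5b probes 1 was called on its own (-1.82, adjusted p = 0.0432) and the other was not (-1.75, adjusted p = 0.0615).

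Agr2 and Tff2 were lower in the same samples. Agr2 was 9.75, 10.85 and 10.39 and fell by 1.93 (SE 0.545, adjusted p = 0.0363, limma), and Tff2 was 8.23, 8.77 and 9.08 and fell by 2.49 (SE 0.656, adjusted p = 0.0243). Each of these calls was lost in 5 of 11 fits with a sample left out. Of the 3 Tff2 levels, 1 lay within the range of the PBS-challenged controls (7.53 to 8.59). Itln1, at 10.50, 10.78 and 10.36, was below all OVA-challenged controls, with a log2 fold change of -1.11 (95% interval -2.05 to -0.17) that did not pass (adjusted p = 0.158, limma) but did with the random block (-1.51, adjusted p = 3.24e-04). Muc4 and Muc1 overlapped with the controls (adjusted p = 0.999 and 0.747).

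After 40 μg of CuO COOH, with 3.81% of all genes called and 1.58% lower, Muc5ac was 7.78, 7.49 and 8.16 and fell by 2.09 (SE 0.565, adjusted p = 0.0264, limma). Spdef was 8.83, 8.87 and 9.29 and fell by 1.23 (SE 0.300, adjusted p = 0.0149). Both calls were lost without replicate 1 of this group or replicate 1 of the OVA-challenged controls, with Muc5ac between -3.28 and -0.92 and Spdef between -1.79 and -0.37 over 11 such fits. Muc5b, Clca1, Foxa3, Itln1 and Tff2 were also below all OVA-challenged controls without passing (Foxa3 overlapping before dye, slide and position were removed), with log2 fold changes of -0.79, -2.13, -0.29, -0.19 and -1.85. Muc4, at 8.98, 8.90 and 9.06, was above all of them, though not before that removal, with 0.53 (95% interval 0.13 to 0.92, adjusted p = 0.0965).

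Core CuO and CuO PEG at 40 μg gave 0 calls among the 10 genes in this fit, with 1.58% and 0.642% of all genes called and an unadjusted p under 0.05 in 2 and 0 of the 10. After core CuO, Muc5ac was 8.67, 8.30 and 8.66 and after CuO PEG 8.49, 8.19 and 9.33, again below all OVA-challenged controls, though before dye, slide and position were removed the CuO PEG samples overlapped with them. Their log2 fold changes were -1.21 (95% interval -2.86 to 0.45) and -0.76 (-2.14 to 0.63). Clca1 after core CuO was 13.09, 12.79 and 13.15, below the lowest OVA-challenged control at 14.53, although the fit with array terms gave 1.03 (95% interval -2.68 to 4.75). Array terms and group levels opposed each other here.

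With the array as a random block, 23 pairs were called, all lower, with 2.14% over all genes called and 0.93% lower. Core CuO at 40 μg then had 6 (Muc5ac -2.45, Muc5b -0.98, Clca1 -3.67, Spdef -1.18, Agr2 -1.47 and Itln1 -1.86), CuO COOH 6 and CuO NH3 7, where 4.13%, 5.2% and 6.18% of all genes were called. CuO PEG at 40 μg had 2 (1.85% of all genes), Muc5ac (-1.61, adjusted p = 0.00467) and Spdef (-0.87), and CuO COOH at 10 μg the same 2 genes (1.28%). In this fit Muc5ac and Spdef were lower after 40 μg of each of the 4 materials. The lower doses of core CuO, CuO NH3 and CuO PEG and the lowest of CuO COOH had 0 calls in either fit.

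**Figure D3:**
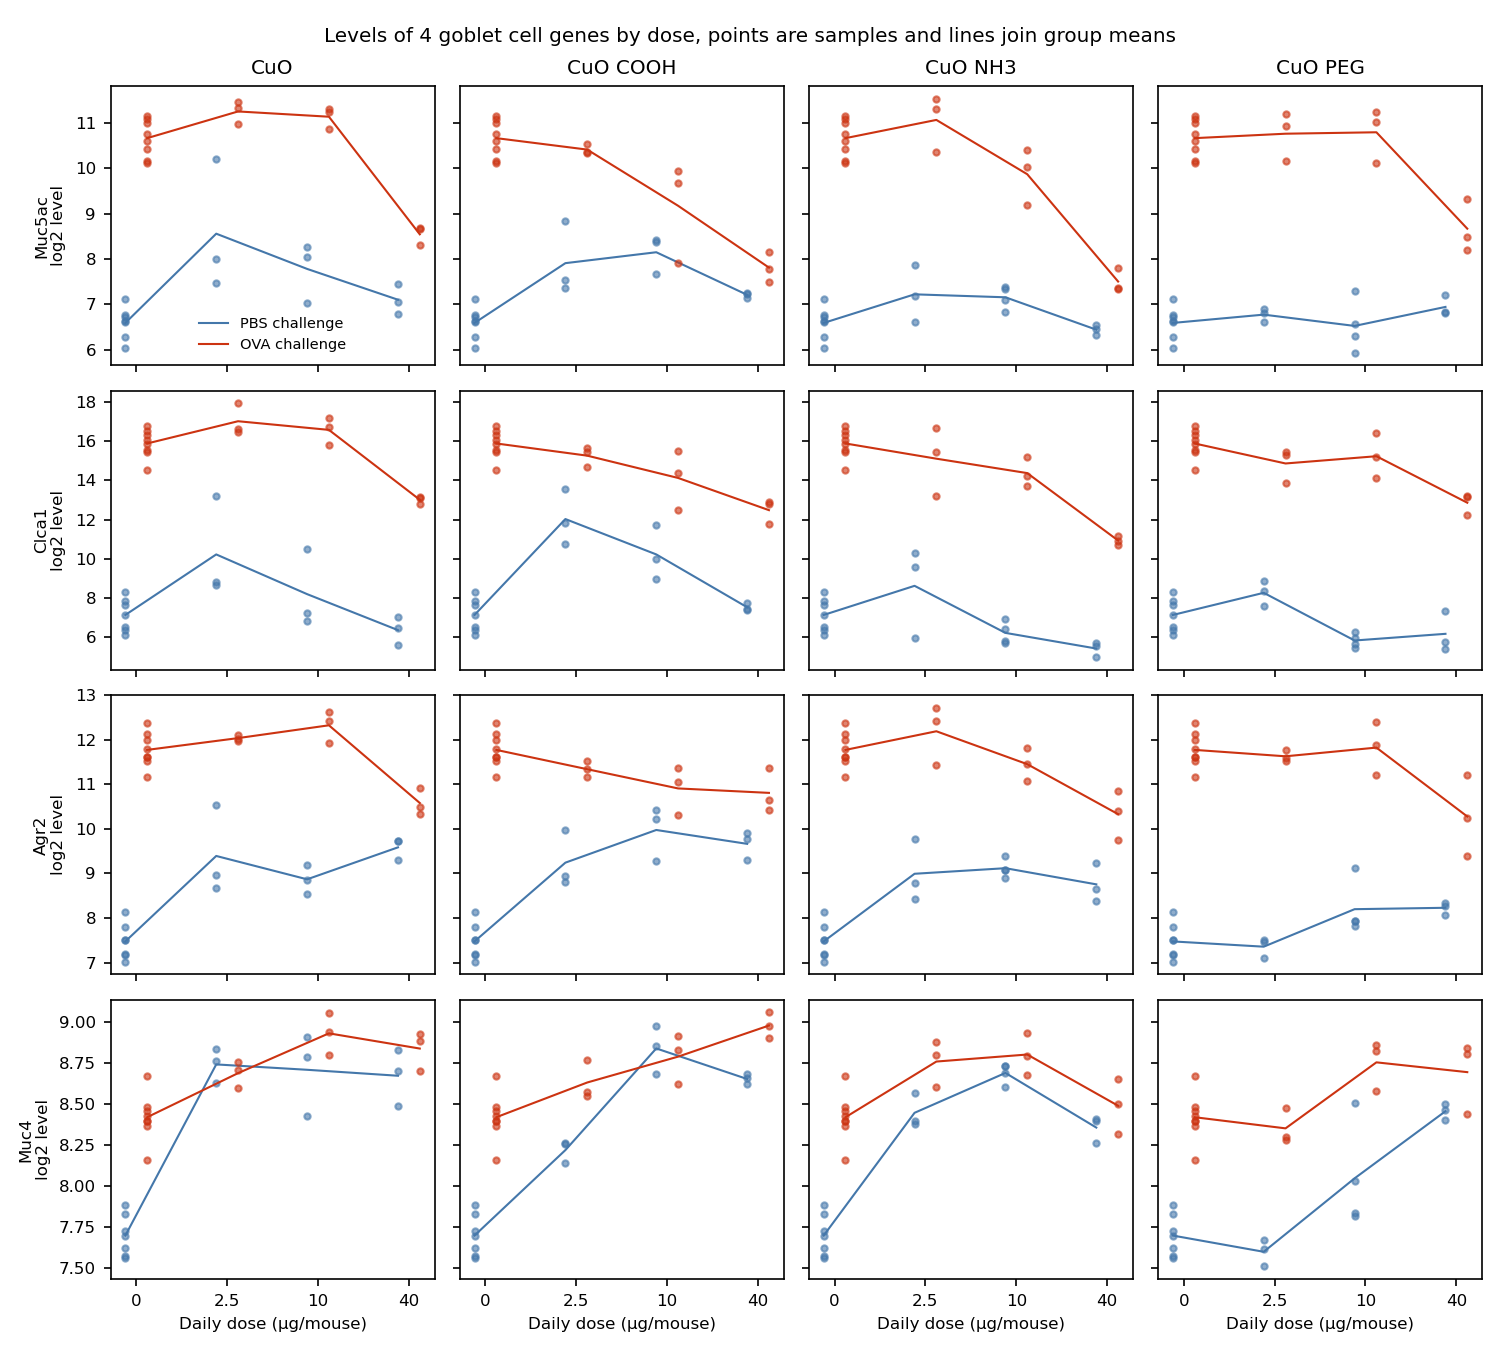
Levels (log2 intensity, dye, slide and array position removed) of Muc5ac, Clca1, Agr2 and Muc4 against daily dose (0, 2.5, 10 and 40 μg/mouse, evenly spaced) for each material, with points for samples and lines for group means, in PBS-challenged and OVA-challenged mice. In OVA-challenged mice Muc5ac falls from means of 10.41 to 11.25 at 2.5 μg to 7.50 to 8.67 at 40 μg, while the Muc4 means of all exposed OVA-challenged groups lie between 8.35 and 8.98.

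The step from 2.5 to 40 μg within OVA-challenged mice was tested directly. For CuO NH3, Muc5ac fell by 3.47 (SE 0.730, adjusted p = 0.0218, limma) and Spdef by 1.85 (SE 0.387, adjusted p = 0.0215), with 0.703% of all genes called. Mean levels of Muc5ac were 11.06, 9.87 and 7.50 at 2.5, 10 and 40 μg of CuO NH3, 10.41, 9.17 and 7.81 for CuO COOH, 11.25, 11.13 and 8.54 for core CuO and 10.76, 10.79 and 8.67 for CuO PEG. For every material the 3 samples at 40 μg lay below the 3 at 2.5 μg. The other three steps of Muc5ac were not called (-2.51, -2.23 and -1.29 for CuO COOH, core CuO and CuO PEG) and all 4 were with the random block, which called 27 of 80 pairs over both challenges in place of 6, with 3.99% over all genes in place of 2.17%. With the replicate number as a block, where same-numbered samples deviated together, the calls were Muc5ac (-2.93), Spdef (-1.29), Clca1 (-3.65) and Tff2 (-2.63) for CuO COOH, with 3.03% of all genes called, and Muc5ac (-2.38) and Spdef (-0.94) for CuO PEG, with 1.57%. The 2 calls for CuO NH3 were each lost in 5 of 6 fits with a sample left out.

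Other lists at 40 μg of CuO NH3 with OVA went in both directions, in a comparison with 3.98% of all genes called and 1.92% called lower. Of the 19 goblet cell products, 4 fell, Fcgbp by 2.78, Scin by 2.02, Bpifb1 by 1.94 and Tff1 by 1.52, and 2 rose, Dmbt1 (2.65) and Retnlb (2.39). Of the 25 genes of mucin folding and glycosylation 2 fell, Ern2 by 1.53 and Galnt12 by 0.67. Of the 33 pathway genes, Gata3 fell by 0.78 and the EGF receptor ligands Ereg (1.98) and Areg (1.33) rose. Of the 12 club cell genes 6 fell, among them Chad by 1.70, Cyp2f2 by 1.48 and Cbr2 by 1.39, of 12 ciliated cell genes 2 fell, of 10 alveolar type 2 cell genes 2 fell, and of 11 neutrophil genes 8 rose, led by Stfa2l1 (3.50) and S100a8 (2.47).

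The mean level of the neutrophil list was 9.42 to 9.91 in OVA-challenged controls and, at 40 μg with OVA, 10.54 to 11.53 for CuO NH3, 10.32 to 10.85 for CuO COOH, 10.66 to 11.25 for core CuO and 10.76 to 10.88 for CuO PEG. The mean of the club cell list was 12.01 to 12.61 in OVA-challenged controls and 11.63 to 11.72 after 40 μg of CuO NH3. Eosinophil genes were at 7.83 to 8.56 and 8.01 to 8.44 in the same order. Muc5ac and Clca1 were thus lower in samples with a higher neutrophil list and a lower club cell list, and the part of these cells was not tested.

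Whether exposure acts differently with and without allergen was tested by subtracting the effect of exposure without allergen from the effect with it. Of 120 pairs 1 was called, lower with allergen, against 0.346% over all genes called and 0.311% lower. For 40 μg of CuO NH3, with 1.59% of all genes called, the difference for Agr2 was -3.30 (SE 0.708, adjusted p = 0.0118, limma), made of a rise of 1.38 without and a fall of 1.93 with allergen. This call was lost in 5 of 21 fits with a sample left out. For the same material and dose all 10 genes had a negative difference, those of Muc5ac (-2.96, adjusted p = 0.0609) and Spdef (-1.53, adjusted p = 0.0703) among them. With the random block 25 pairs were called, all lower, with 1.38% over all genes called and 1.04% lower. They were 6 for core CuO at 40 μg (5.05% of all genes), 7 and 5 for CuO COOH at 10 and 40 μg (1.36% and 2.29%), 6 for CuO NH3 at 40 μg (3.19%) and 1 for core CuO at 2.5 μg (1.03%).

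The response to the allergen was also read within each exposed group, as OVA-challenged against PBS-challenged mice given the same material and dose. Of 120 pairs 22 were called, all higher, against 2.04% over all genes called and 1.28% higher, and 57 had an unadjusted p under 0.05. After 2.5 μg of CuO PEG, with 7.82% of all genes called, 6 of the 10 genes rose, with log2 fold changes of 4.66 for Muc5ac, 2.79 for Muc5b, 7.12 for Clca1, 1.85 for Spdef, 4.86 for Agr2 and 4.17 for Itln1. After 2.5 μg of CuO NH3, with 8.18%, the same 6 genes rose, by 3.18, 1.47, 4.79, 1.17, 2.88 and 4.02. After 10 μg of CuO NH3, with 4.81%, it was 5 of them, without Muc5b. The 6 calls of CuO PEG were each lost without replicate 3 of PBS-challenged CuO PEG at 2.5 μg, and that of Muc5b also without replicate 1 of the OVA-challenged group. At 2.5 μg of CuO NH3, Muc5b was lost in 4 of 6 fits (1.17 to 2.49) and Clca1 in 2 of 6 (3.55 to 7.30), and the other 4 calls in 0. The calls of Muc5ac, Clca1, Spdef and Agr2 at 10 μg of CuO NH3 were lost without replicate 2 of the PBS-challenged group, and that of Spdef also without replicate 3 of the OVA-challenged group.

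At 40 μg of CuO NH3, limma called 0 of the 10 genes and 0% of all genes, with 1 of the 10 at an unadjusted p under 0.05. Muc5ac levels there were 6.54, 6.32 and 6.47 without and 7.36, 7.35 and 7.81 with OVA. Its difference of 0.07 had a 95% interval from -1.48 to 1.62, while the group levels did not overlap. Spdef had 0.31 (95% interval -0.51 to 1.13) and Agr2 0.55 (-0.83 to 1.93). Clca1 was 4.97, 5.56 and 5.71 without and 10.71, 11.17 and 10.90 with OVA, a difference of 3.20 (95% interval -0.28 to 6.68). The test of these differences against those of the controls is the one given above, in which Agr2 passed.

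At 40 μg of CuO PEG, Clca1 (7.75, SE 1.78, adjusted p = 0.0348, limma) and Itln1 (3.89, SE 0.588, adjusted p = 0.0015) were called, with 0.93% of all genes, the first in 1 of 6 fits with a sample left out and the second in all but the one without replicate 3 of the OVA-challenged group. At 10 μg of CuO PEG the same 2 genes were called (7.88 and 4.12, with 2.3% of all genes), Clca1 being lost without replicate 3 of the OVA-challenged or replicate 4 of the PBS-challenged group (5.64 to 8.31) and Itln1 without the former, and at 10 μg of core CuO Itln1 was (4.04, with 0.284%). Core CuO at 2.5 and 40 μg and CuO COOH at each dose had 0 calls, with 2 or 3 of the 10 genes at an unadjusted p under 0.05 in each. With the replicate number as a block Clca1 was called at 40 μg of core CuO (5.21, adjusted p = 0.0138, limma), and Foxa3 (0.61), Tff2 (2.72) and Muc4 (0.78) were called beside the other six at 2.5 μg of CuO PEG. In the fit with array terms, core CuO at 2.5 μg rests on 1 OVA-challenged sample. With the random block 69 pairs were called, 68 of them higher and Muc1 after 10 μg of CuO COOH lower, with 4.32% over all genes, and Clca1 and Itln1 were called in all 12 exposed groups. At 40 μg of core CuO, CuO COOH and CuO NH3 that fit called these 2 genes and none (0) of the other eight, with 0.297%, 1.56% and 1.02% of all genes called.

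**Figure D4:**
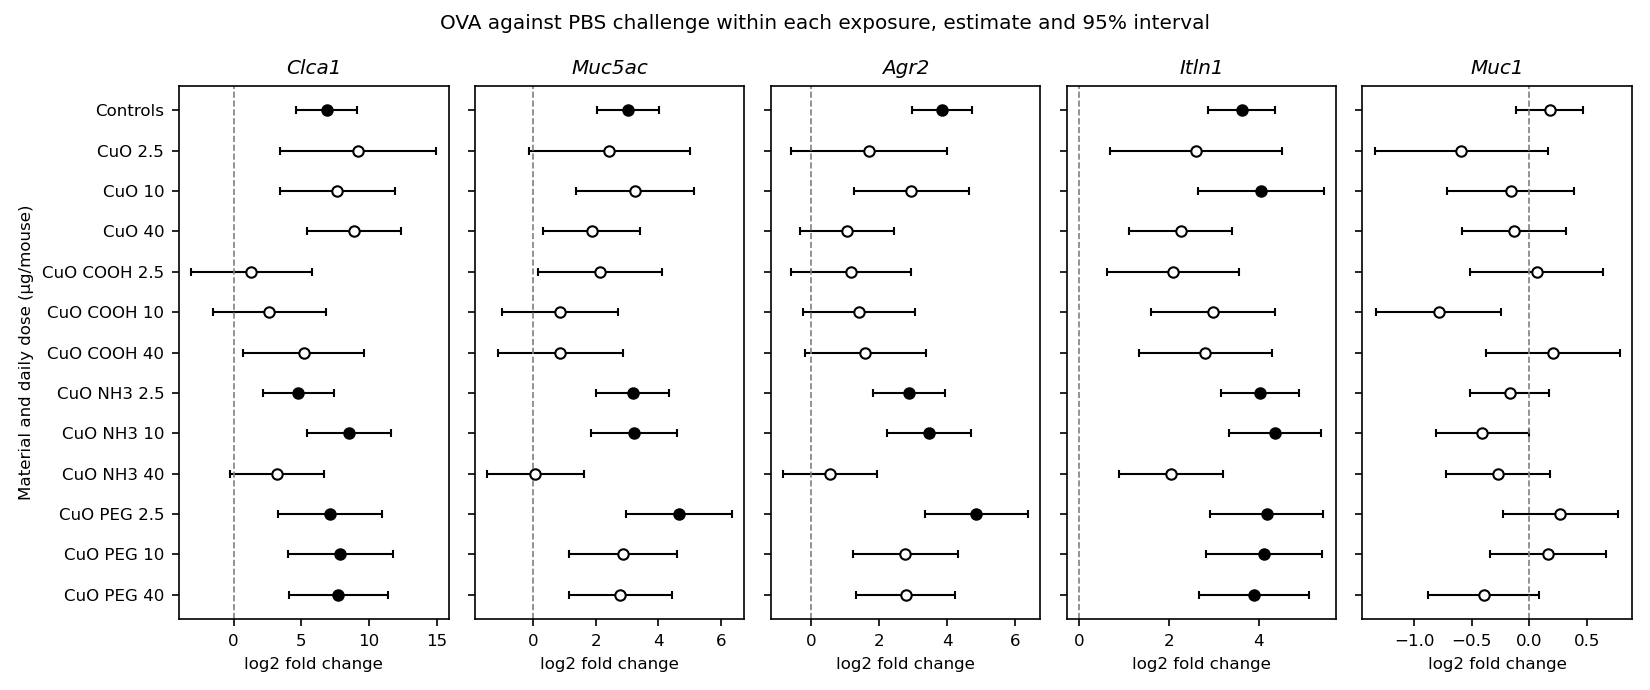
Effect of the OVA challenge (log2 fold change of OVA-challenged against PBS-challenged mice, with 95% interval) on Clca1, Muc5ac, Agr2, Itln1 and Muc1 in the controls and in each of the 12 exposed groups. Filled points are called, among them Itln1 in 7 of the 13 comparisons, and the Muc5ac point for CuO NH3 at 40 μg lies at 0.07.

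The materials were compared with each other at the same dose and challenge, each modified material against core CuO. Of 180 pairs in 18 comparisons, 9 were called, all lower than after core CuO, against 0.501% over all genes called and 0.302% lower, and 51 had an unadjusted p under 0.05. CuO COOH shared its slides with core CuO, while CuO NH3 and CuO PEG lay on other slides and were set against core CuO through the terms for slide and position, which rest on the controls. With array terms, as used for all other comparisons, 2 of the 9 calls held, those of Muc4 (-1.33, adjusted p = 0.016, limma) and Muc1 (-1.15, adjusted p = 0.0163) after 2.5 μg of CuO PEG without allergen, and the other 7 were lost (adjusted p from 0.0598 to 1.0).

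Without allergen, the PEGylated material was lower than core CuO in Muc4, Muc1 and Agr2 at the lowest dose. At 2.5 μg, with 1.86% of all genes called, Muc4 was 7.67, 7.62 and 7.51 after CuO PEG and 8.63, 8.76 and 8.83 after core CuO, a difference of -1.14 (SE 0.170, adjusted p = 1.49e-05, limma) seen by each of its 3 probes. Muc1 was 11.67, 11.58 and 11.62 against 12.48, 12.61 and 12.73, a difference of -0.98 (SE 0.146, adjusted p = 1.49e-05). Neither gene overlapped between the materials, and both calls held in 6 of 6 fits with a sample left out. Agr2 was 7.50, 7.47 and 7.10 against 8.68, 8.96 and 10.54, a difference of -2.04 (SE 0.549, adjusted p = 0.0236) that was lost without replicate 3 of either group (-2.50 to -1.17 over 6 fits). The Agr2 levels overlapped before dye, slide and position were removed.

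At 10 μg, with 1.06% of all genes called, Muc4 (-0.66, SE 0.155, adjusted p = 0.0136, limma) and Muc1 (-0.61, SE 0.133, adjusted p = 0.00751) were again lower after CuO PEG, Muc4 with 1 overlapping sample at 8.51. These 2 calls were lost in 4 and 3 of 7 fits with a sample left out. With the array as a random block the difference of Muc4 was -0.52 (adjusted p = 0.00338), under the limit on the fold, and that of Muc1 -0.34 (adjusted p = 0.0504). At 40 μg, with 4.39%, this was no longer so. The difference was -0.22 for Muc4 (95% interval -0.54 to 0.10) and 0.14 for Muc1 (-0.13 to 0.42). Muc5b was then lower by 1.40 (SE 0.461, adjusted p = 0.0341), with levels of 10.12, 10.46 and 10.25 after CuO PEG against 11.93, 11.69 and 11.41. This call was lost in 5 of 6 fits with a sample left out.

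For carboxylated and methylaminated CuO, limma with slide and position terms gave 0 calls among the 10 genes without allergen, where each comparison had 0 to 3 of the 10 at an unadjusted p under 0.05. For Muc4 the intervals of the difference to core CuO ran from -0.79 to -0.25 at 2.5 μg, -0.15 to 0.41 at 10 μg and -0.29 to 0.25 at 40 μg for CuO COOH, and from -0.65 to 0.06, -0.33 to 0.29 and -0.64 to 0.01 for CuO NH3. Muc1 after 2.5 μg of CuO COOH had an adjusted p of 0.0355 with a log2 fold change of -0.49, under the limit on the fold. An adjusted p above the threshold does not show that these materials act alike.

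With allergen, 3 pairs were called, in comparisons with 0.00436%, 0.323% and 0.384% of all genes called. Spdef was lower after 10 μg of CuO COOH (9.98, 9.71 and 9.23) than after 10 μg of core CuO (11.07, 10.76 and 10.86), by 1.26 (SE 0.238, adjusted p = 0.044, limma), a call lost in 5 of 6 fits with a sample left out. Tff2 was lower after 40 μg of CuO COOH (8.06, 7.66 and 9.36 against 10.61, 10.24 and 11.30), by 2.35 (SE 0.532, adjusted p = 0.0268). Muc1 was lower after 40 μg of CuO NH3 (11.90, 11.98 and 11.66 against 12.54, 12.35 and 12.43), by 0.59 (SE 0.138, adjusted p = 0.0409). The last 2 were lost in 4 and 3 of 6 such fits, and with the random block none (0) of the 3 was called. With the array as a random block 10 pairs were called, with 3.28% over all genes, of which 4 were among the 9. The other six were Tff2 after 40 μg of CuO NH3 without (-1.87, adjusted p = 0.0135, limma) and with allergen (-1.54, adjusted p = 0.024), and, without allergen, Muc5ac at 2.5 μg (-1.42), Muc5b and Tff2 at 10 μg (-1.01 and -1.29) and Agr2 at 40 μg of CuO PEG (-1.20).

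**Figure D5:**
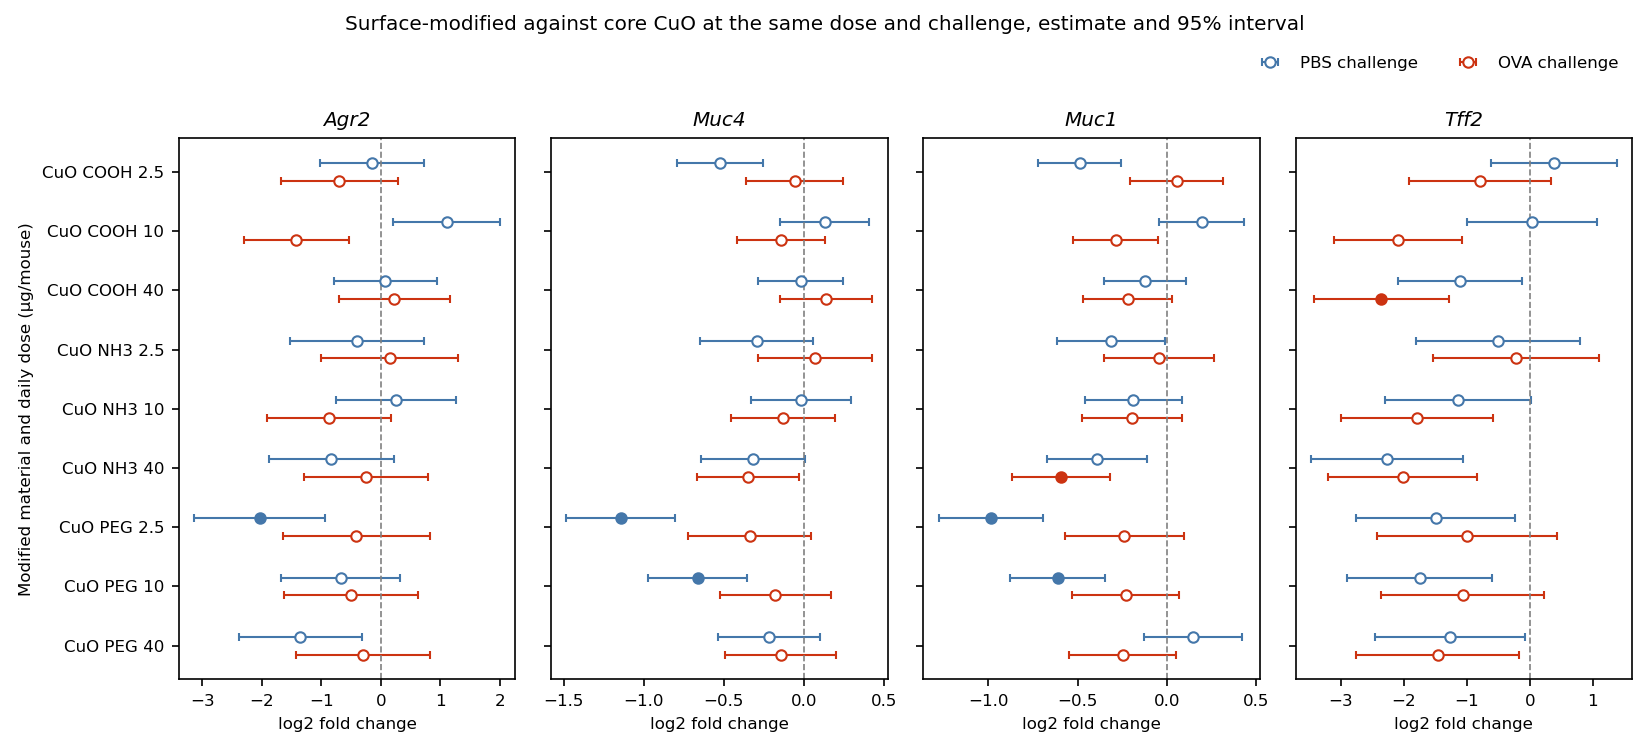
Difference of each modified material to core CuO at the same dose (log2 fold change with 95% interval) for Agr2, Muc4, Muc1 and Tff2 in PBS-challenged and OVA-challenged mice. Filled points are called, and the points of CuO PEG at 2.5 μg without allergen lie at -2.04 for Agr2, -1.14 for Muc4 and -0.98 for Muc1.

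Over the 26 group means, Muc5ac and Spdef ran most closely together of the pairs among the 10 genes (Pearson correlation 0.972), while Muc5ac had 0.459 with Muc4 and -0.045 with Muc1. Among the 13 means of PBS-challenged groups Muc5ac had 0.609 with Muc4 and 0.711 with Muc1. Among the 13 means of OVA-challenged groups it had -0.163 and -0.043. These are descriptions over group means that share arrays and controls. The non-member genes whose means were most like those of Muc5ac were Fcgbp (0.987), Adra2a (0.975), Scin (0.968), Ern2 (0.966) and Cldn22 (0.958), and the same 5 genes were those of Spdef, from 0.962 for Fcgbp to 0.944 for Cldn22. For Clca1 they were Ern2 (0.954), Chil3 (0.944), Clec4b1 (0.943), Itgb2 (0.939) and Cd209e (0.938).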

How the data were processed

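The authors hybridised lung RNA to 2-colour Agilent arrays for the mouse, with 1 sample in Cy3 and another in Cy5 on most arrays. The authors deposited the scanner output of Feature Extraction (version 12.0.2.2 in the file headers), with unnormalised median foreground intensity of each spot, and a table of normalised log2 values per probe, which was used as an alternative. Their methods describe quantile normalisation, ComBat for labelling and array, and limma.

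Control spots (3671 of 62976) and spots flagged as outliers were left out. The log2 median foreground was quantile normalised over the 89 samples and averaged over spots and then over the probes of a gene (22911 genes, named by RefSeq accession). Groups were taken from the labels. limma 3.58.1 in R 4.3.3 was fitted to all 26 groups and all genes, with terms for dye and array or, between materials, dye, slide and array position. Median foreground per sample was 55 to 121 in Cy3 and 67 to 180 in Cy5, a median of 2.58 and 1.66 times the local background. A probe near background understates its fold change. Tests on simulated data were run for a chosen comparison of each family only. In these, 189 to 199 of 200 genes shifted by 1.5 log2 units were recovered, with 2 to 10 false calls. Recovery in the other comparisons, including those resting on fewer samples, was not tested. The SE of Clca1 was 0.90 or more in every comparison, so this recovery need not hold for it.

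The 10 genes and the lists of other genes were chosen with earlier results of these data known. All 10 genes are named, together with, of each list, up to 4 called genes with the largest change between the controls and up to 3 called at the highest dose, and the 5 genes most correlated over group means with Muc5ac, Clca1 and Spdef. Muc6, Muc16, Muc19, Itln2 and Ly6g had no probe here. Alternatives were other background correction, normalisation, batch terms, probe filters and slides, the deposited table, and each sample left out. Replicate numbers were checked for pairing: of 63 comparisons, 7 had every same-number correlation over 0.1, and the labels tie no number to an animal, batch or day. Among exposed samples, numbers 1, 2 and 3 lay mostly on slides 1, 2 and 3 for core CuO and CuO COOH. For CuO NH3 and CuO PEG they lay mostly on slides 4, 5 and 6. A pairing by number and a difference between slides cannot be told apart there. Figures were drawn with matplotlib 3.10.9.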

Additional observations from a re-analysis of the deposited data

Results flagged for a closer look

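In groups of 4 to 10 samples, 40 pairs of a gene and a group were checked for a sample far from the others, and 6 were found, where chance gives about 1 in 20. Muc5b in replicate 6 of the PBS-challenged controls was 9.51, with the nearest other sample at 10.22. Itln1 in replicate 7 of the same controls was 7.29, with the nearest at 7.77. In PBS-challenged mice given 10 μg of CuO NH3, Muc5b was 11.43 in replicate 3 (nearest 11.04) and Muc1 12.39 in replicate 1 (nearest 12.44). In those given 10 μg of CuO PEG, Agr2 was 9.13 in replicate 1 (nearest 7.92) and Foxa3 5.48 in replicate 3 (nearest 5.87). That replicate 1 also had the highest Muc5ac, Muc5b, Tff2 and Muc4 of its group (7.30, 11.38, 9.47 and 8.51).

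The effect of 40 μg of CuO NH3 on Agr2 differed between the challenges by -3.3 on the log2 scale (adjusted p = 0.0118, limma), in a test of the difference itself.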

How the results depend on the processing

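Background correction with normexp and the deposited value table left every count of called pairs within 1.5 times the main one, and no called pair reversed its sign under any alternative run. Counts moved with the batch terms. Against PBS-challenged controls the 14 calls became 37 with the array as a random block, 37 with no batch terms and 41 with slide and position in place of the array. Against OVA-challenged controls 8 became 23 under each of these. The difference of exposure effects had 25, 26 and 34 calls in place of 1, the challenge within exposed groups 69, 68 and 65 in place of 22, and the dose step 27, 26 and 27 in place of 6. Between materials 9 calls became 2 with array terms. With dim probes left out, and with loess (86 samples), the difference of exposure effects had 2 calls, and with loess the dose step had 3. The array terms leave fewer degrees of freedom, and the estimates moved as well. In 129 of 750 pairs the log2 fold change had opposite signs with array terms and with the random block. The cause of the changed counts was not tested. Apart from the random block, whose shares are given above, no share over all genes stands beside the counts of these alternatives. A change in them cannot be told from a change over all genes.

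On slides 4 to 6 alone the controls gave 4 calls in place of 8. On slides 1 to 3 alone, core CuO and CuO COOH had 5 calls against PBS-challenged controls in place of 10, 1 against OVA-challenged controls in place of 2, 0 between them in place of 2 and 0 for the challenge in place of 1. On slides 4 to 6, CuO NH3 and CuO PEG had 2 against PBS-challenged controls in place of 4 and 2 for the difference of effects in place of 1. These fits hold fewer samples, and no share over all genes stands beside their counts.

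With the replicate number as a block, together with dye and without array terms, 30, 22, 25, 68 and 27 pairs were called against PBS-challenged controls, against OVA-challenged controls, for the difference of effects, the challenge and the dose step. The controls gave 9 and the materials 10. No share over all genes stands beside these totals. Same-number correlations ran from -0.297 to 0.698. In 7 of 63 comparisons every one was over 0.1, among them 4 of the 8 dose steps and 2 of the 12 challenges, and there the numbers may pair samples. Because the numbers of exposed samples mostly followed the slides, pairing and slide cannot be told apart. With the block, the challenge at 2.5 μg of CuO PEG had 9 calls in place of 6 (4.57% of all genes), and that at 40 μg of core CuO 1 in place of 0 (Clca1). In place of 0, the dose step had 1 for core CuO (Clca1) and 3 for CuO COOH (Clca1, Spdef and Tff2) without allergen, and 4 for CuO COOH (these and Muc5ac) and 2 for CuO PEG (Muc5ac and Spdef) with it. CuO NH3 against core CuO at 10 μg with allergen had 0 in both.

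With each sample left out in turn, the controls gave 7 to 8 calls, exposure against PBS-challenged controls 6 to 16, against OVA-challenged controls 4 to 11, the difference of effects 0 to 4, the materials 6 to 11, the challenge 15 to 31 and the dose step 2 to 7. Counts against PBS-challenged controls were lowest (6) without replicate 1 of those controls and without replicate 1 of OVA-challenged CuO COOH at 2.5 μg. Against OVA-challenged controls they were lowest (4) without OVA-challenged control replicates 5 or 8, replicates 1 or 3 of OVA-challenged CuO NH3 at 40 μg, and 4 samples of CuO PEG. The 1 call on the difference of effects was lost without any of 8 samples, among them PBS-challenged control replicate 5 and OVA-challenged control replicate 8. The dose step was lowest (2) without OVA-challenged control replicate 8 and 5 exposed samples of CuO NH3 and CuO PEG. The counts against OVA-challenged controls, for the difference of effects, the challenge and the dose step could not be estimated without replicate 2 of OVA-challenged CuO at 2.5 μg or of PBS-challenged CuO COOH at 10 μg. Samples alone on an array, and probes near background, limit the precision. The counts with a sample left out also stand without a share over all genes.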
